A study of Mus musculus with 2 samples.

Results

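Interleukins and the tumor necrosis factor (TNF) superfamily, with their receptors and natural inhibitors, were followed as transcripts in 2 rhabdoid tumors (RT) of mice. The members were the protein-coding genes of the deposited count matrix whose symbol began with Il, Tnfsf or Tnfrsf and a digit, with Tnf, Lta and Ltb added. This gave 116 of the 55416 genes in the matrix, which holds 21928 protein-coding genes with a symbol. By role, 51 were ligands, 53 were signaling receptors, 9 were decoy receptors, antagonists or binding proteins, and 3 had another role.

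RT are aggressive tumors of early life in which the chromatin remodeler SWI/SNF has lost a subunit, most often Smarcb1. Both tumors came from Dppa3-cre::Smarcb1 Fl/+ mice, in which Dppa3, a gene of primordial germ cells, drives Cre recombinase and 1 allele of Smarcb1 is floxed. The labels place 1 tumor intracranially at the trigeminal nerve and 1 extracranially in the maxillary part of the face, and class both as MYC. Each was measured as 1 bulk RNA-seq library of fresh frozen tissue, with no normal tissue and no tumor of another genotype beside them. With 1 library per location there was no replicate, so no difference below was tested between locations, and every interval covers counting error only. Bulk libraries also cannot tell fewer cells of a type from less RNA per cell.

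Interleukins are secreted proteins through which immune, epithelial and stromal cells signal to each other, and most act through receptors made of a ligand-binding chain and a shared chain. TNF superfamily ligands act as trimers, often from the cell surface, on receptors that recruit TRAF adaptors or, for the death receptors, caspases. Both systems are held in check by decoys: receptors without a signaling domain, soluble receptors, and antagonists that occupy a receptor without activating it.

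The libraries labelled intracranial and extracranial held 34545846 and 26915696 counts, and values are given in that order throughout. Smarcb1, the targeted gene, was at 365 and 530 counts, or 10.5 and 19.8 CPM (counts over the scaled library size, in the usual unit), so its transcript was present in both. Of 5 single-cell markers of extracranial RT cells, 4 were more than 4-fold higher in the library labelled intracranial, with a summed level of 2542 against 922.4 CPM. The remaining marker, Postn, was 1.85-fold higher there (49555 and 20657 counts). This direction goes against the location labels, although no markers of intracranial RT cells were scored. The libraries are therefore only called by their labels. The largest contrast among the cell type lists was that of keratinocytes. All 10 of their markers were above 3 counts under the intracranial label (summed level 21518 CPM), whereas 7 of 10 were at 0 under the extracranial label (0.598 CPM), namely Krt5, Krt6a, Trp63, Dsg3, Sprr1b, Ivl and Krt1.

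Before the values, the stretches around the transcription starts of 4 cytokine genes are given as a description of their sequence only. They are Il33, the highest member in both libraries with a pair of annotated starts, Il1a and Il6, which were called different between the libraries, and Il1b, which was not. Each runs 5′ to 3′ on the strand of the gene, from 250 bases before to 50 after the start, and was taken from RefSeq on build GRCm38.p6, an older build than the one used for counting. Capitals mark matches to the AP-1 motif (TGANTCA, which is its own reverse complement) or to the NF-κB consensus, searched on both strands. The windows are Il33 start 1 at chr19:29924863-29925162 (+), Il33 start 2 at chr19:29945540-29945839 (+), Il1a at chr2:129309923-129310222 (-), Il1b at chr2:129371090-129371389 (-) and Il6 at chr5:30012864-30013163 (+).
Il33 start 1: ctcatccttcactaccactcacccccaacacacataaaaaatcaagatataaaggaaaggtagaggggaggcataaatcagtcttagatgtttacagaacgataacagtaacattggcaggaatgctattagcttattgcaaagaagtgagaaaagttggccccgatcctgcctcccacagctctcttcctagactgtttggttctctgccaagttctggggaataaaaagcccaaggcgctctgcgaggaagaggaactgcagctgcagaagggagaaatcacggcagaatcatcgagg
Il33 start 2: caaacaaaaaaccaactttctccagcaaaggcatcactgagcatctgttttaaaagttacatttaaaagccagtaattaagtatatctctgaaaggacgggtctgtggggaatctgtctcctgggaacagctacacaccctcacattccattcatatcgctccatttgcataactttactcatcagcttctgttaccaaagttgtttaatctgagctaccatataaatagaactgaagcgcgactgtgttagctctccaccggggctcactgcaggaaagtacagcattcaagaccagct
Il1a: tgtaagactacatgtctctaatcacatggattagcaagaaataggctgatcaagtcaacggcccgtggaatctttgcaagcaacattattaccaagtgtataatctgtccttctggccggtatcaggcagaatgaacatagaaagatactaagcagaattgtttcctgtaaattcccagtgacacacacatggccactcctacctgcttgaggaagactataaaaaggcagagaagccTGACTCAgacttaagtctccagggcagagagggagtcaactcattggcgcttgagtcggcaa
Il1b: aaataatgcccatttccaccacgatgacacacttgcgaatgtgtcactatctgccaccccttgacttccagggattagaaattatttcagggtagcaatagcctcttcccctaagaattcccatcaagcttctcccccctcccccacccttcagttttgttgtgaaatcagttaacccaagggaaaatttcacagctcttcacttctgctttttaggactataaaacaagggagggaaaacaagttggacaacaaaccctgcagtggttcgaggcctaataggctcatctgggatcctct
Il6: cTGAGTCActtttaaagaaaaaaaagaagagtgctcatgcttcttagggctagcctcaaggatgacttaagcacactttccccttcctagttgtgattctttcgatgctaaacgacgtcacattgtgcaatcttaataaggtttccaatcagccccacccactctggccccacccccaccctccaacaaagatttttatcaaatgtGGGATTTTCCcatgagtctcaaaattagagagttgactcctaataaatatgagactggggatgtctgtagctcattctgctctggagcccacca
The Il6 window held 1 match to each motif, the Il1a window held 1 AP-1 match close to the start, and the windows of Il33 and Il1b held none. Of the 116 members, 92 had a window. An AP-1 match was found in 19 of them (20.7%), compared with 8.97% of all 27025 genes with a RefSeq window. A gene counted as matched where any of its windows matched, so genes with more annotated starts could match more often. The NF-κB consensus matched in 12 (13%), compared with 9.55%. A match describes letters in the window and not a bound site, and its absence says nothing about the factor.

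The members together took 3379 and 2617 CPM, and 1 gene dominated this sum. Il33, an alarmin of barrier and stromal cells that signals through Il1rl1 (ST2), was at 63165 and 15725 counts, or 1818 and 587.6 CPM. Its share of the members' counts was 53.8% and 22.5%. It was 3.09-fold higher under the intracranial label (log2 ratio extracranial over intracranial -1.63, 95% interval -1.66 to -1.60). Per kilobase of exon, which allows genes to be compared, Il33 ranked 159 and 530 among all genes. The next members in both libraries were far lower. Tnfrsf12a, the receptor of the cytokine TWEAK, was at 65.9 and 81.8 CPM per kilobase, against 629.9 and 203.6 for Il33. Tnfrsf1a, the main TNF receptor, was at 49.9 and 51.7, and Il1b, the classical inflammatory cytokine, at 37 and 50.1. Under the extracranial label Il10ra, at 14.5 and 56.8, ranked above both of these.

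In each library the 10 highest members per kilobase also included Tnfrsf1b, Tnfsf12 (TWEAK) and Il10ra, the ligand-binding chain of the interleukin-10 receptor. The rest of these 10 were Il11ra2, Il1f6 and Il17rc under the intracranial label and Il4ra, Il34 and Il10rb under the extracranial label. Il11ra2 was at 839 and 651 counts, but 100% of its 72-base stretches also occur in Il11ra1 or Gm13305, so its level cannot be separated from theirs. In all, 98 and 84 members were above a floor of 3 counts. Of these, 80 were above it in both libraries, 18 only under the intracranial label and 4 only under the extracranial label.

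**Figure D1:**
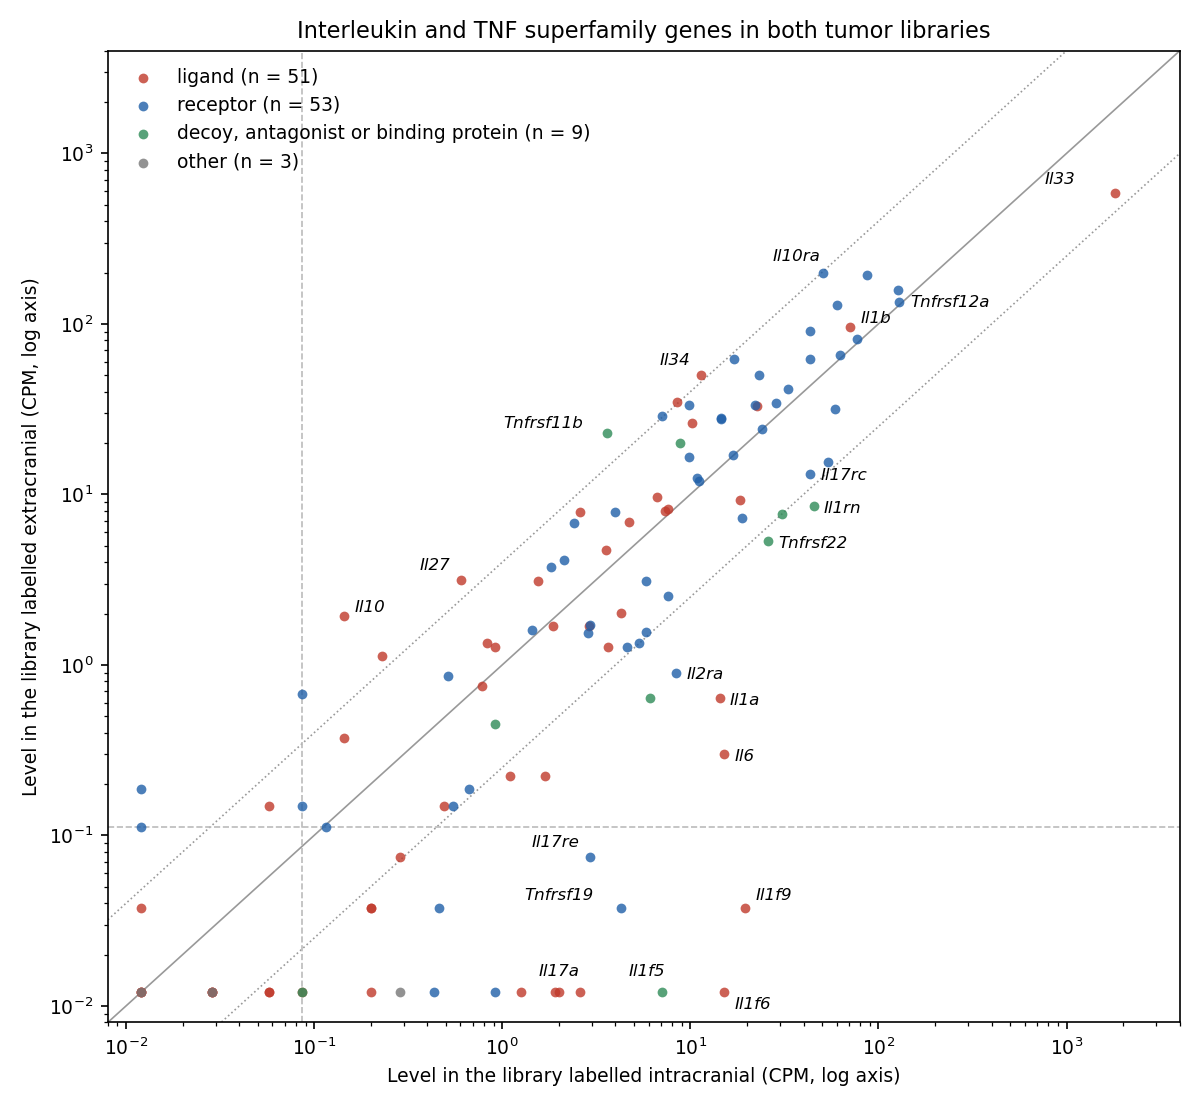
Level of each of the 116 members in the library labelled intracranial (x axis) and extracranial (y axis), in CPM on log axes, colored by role. The solid line marks equal levels, the dotted lines a 4-fold difference and the dashed lines the floor of 3 counts, and genes with 0 counts are drawn at the edge. Il33 lies far above all others at 1818 and 587.6 CPM, and Il1f9, Il1f6, Il6 and Il1a lie far to the lower right.

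A member was called different where the whole 95% counting interval of its ratio lay beyond 4-fold, among the 95 members with at least 10 counts over both libraries. By this rule, 16 (16.8%) were higher under the intracranial label and 2 (2.11%) under the extracranial label. Among all 21977 genes with as many counts, 5.41% and 1.78% were called in these directions, and among protein-coding genes 6.83% and 2.11%. With the looser bound of 2-fold, 28 and 16 members were called (29.5% and 16.8%, against 9.77% and 5.86% of all genes), and 51 were not. The 16 comprised 8 ligands, 4 receptors and 4 inhibitors. The median log2 ratio was 0.03 over the 102 members with a ratio and -0.04 over all genes. It was -0.15 for ligands, 0.13 for receptors and -2.14 for the inhibitors, of which 8 had a ratio.

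**Figure D2:**
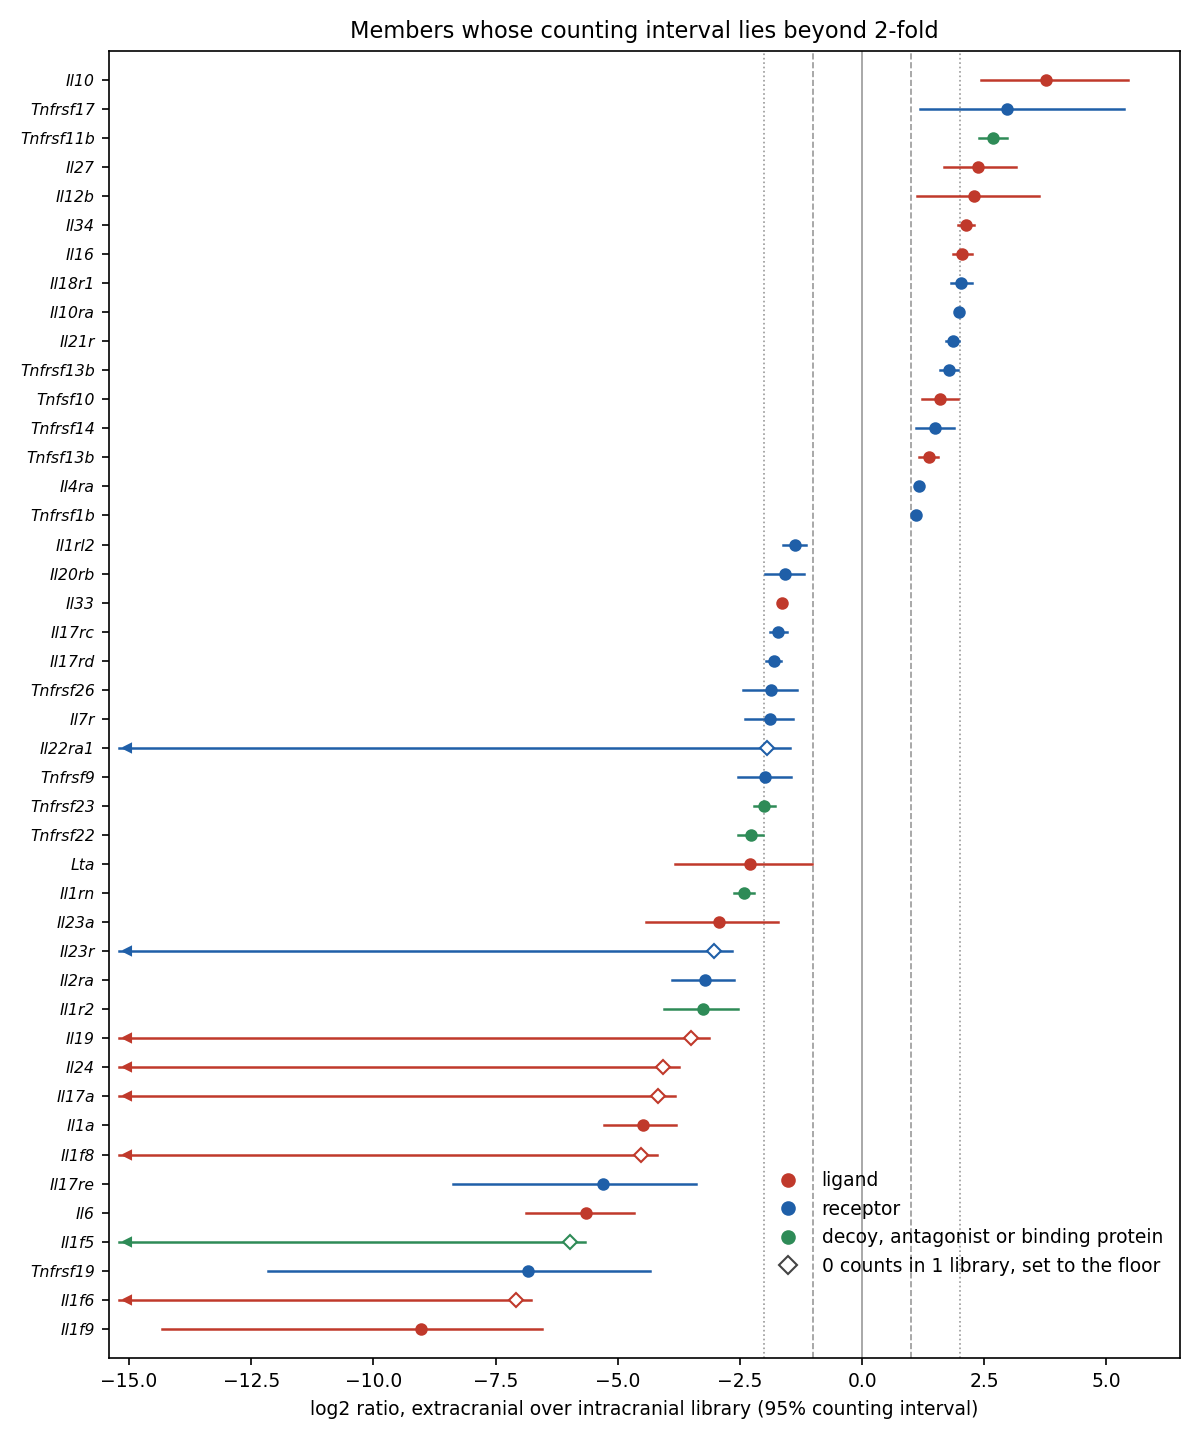
Log2 ratio extracranial over intracranial (x axis) of the 44 members whose 95% counting interval lies beyond 2-fold, in rank order. Bars are counting intervals, open diamonds are genes with 0 counts in 1 library set to the floor of 3 counts, arrows mark intervals without a lower end, and dashed and dotted lines mark 2-fold and 4-fold. The IL-36 genes, Il6, Il17a and Il17re lie at the lower left, and Il10 lies at the upper right.

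The interleukin-1 family held 7 of the 16 members called under the intracranial label, and all 7 were ligands or inhibitors. These were 41.2% of the 17 tested members of the family, against 5.41% of all genes. The IL-36 cytokines are epithelial alarmins that share the receptor Il1rl2. Il1f9 (IL-36γ) was at 676 and 1 counts, a 520.6-fold ratio whose log2 interval ran from -14.33 to -6.54. Il1f6 (IL-36α) was at 525 and 0 counts. Set against the floor of 3 counts it was 135-fold higher under the intracranial label, and with counting error included at least 109.2-fold. Il1f8 (IL-36β), at 90 and 0 counts, was at least 18.4-fold higher by the same bound, the end of the counting interval nearest to equal levels. Their natural antagonist Il1f5 followed the same direction, with 245 and 0 counts and at least 50.8-fold. For the genes at 0 in the library labelled extracranial, up to 0.138 CPM could have gone undetected.

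The receptor side of IL-36 differed far less. Il1rl2 was at 655 and 195 counts, 2.59-fold higher under the intracranial label (log2 ratio -1.37, -1.61 to -1.14). The shared chain Il1rap, used by IL-1, IL-33 and IL-36, was at 588 and 458 counts, or 16.9 and 17.1 CPM, a log2 ratio of 0.02 (-0.16 to 0.20). Receptor transcripts were thus counted in both libraries, while the 3 ligands were nearly all in the library labelled intracranial.

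Il1a and Il1b bind the same receptor, Il1r1, but only Il1a was called. Il1a, often released from damaged epithelial cells, was at 497 and 17 counts, 22.5-fold higher under the intracranial label (log2 ratio -4.49, -5.28 to -3.80). Il1b, made mainly by myeloid cells, was at 2450 and 2559 counts, or 70.5 and 95.6 CPM (log2 ratio 0.44, 0.36 to 0.52). Il1r1 was at 342 and 441 counts (log2 ratio 0.74). Both inhibitors of this axis were called. The receptor antagonist Il1rn was at 1571 and 228 counts, 5.31-fold higher under the intracranial label, and the decoy receptor Il1r2 was at 211 and 17 counts, 9.56-fold higher.

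Il33 and Il18 complete the family. The Il33 receptor Il1rl1 was at 2049 and 845 counts, or 59 and 31.6 CPM (log2 ratio -0.90, -1.02 to -0.79), so ligand and receptor had a ratio of the same sign and the ligand a larger one. Il18, which induces interferon-γ, was nearly level at 255 and 215 counts. Its receptor chains had opposite signs. Il18r1 was at 245 and 772 counts, 4.09-fold higher under the extracranial label with an interval beyond 2-fold but not beyond 4-fold. The accessory chain Il18rap was at 203 and 83 counts (log2 ratio -0.91). The inhibitor Il18bp was at 308 and 537 counts, at a log2 ratio of 1.18 (0.97 to 1.39).

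Several of these genes are neighbors in the genome. Among all genes, 5.41% and 1.78% were called under the intracranial and extracranial labels. On chromosome 2, Il1f8, Il1f9, Il1f6, Il1f5, Il1f10 and Il1rn follow each other. The 5 of them with a ratio were all called under the intracranial label, while Il1f10 had 3 and 0 counts. These 5 are among the 7 of the family counted above and are no further result. On chromosome 1, the receptor genes Il1r2, Il1r1, Il1rl2, Il1rl1, Il18r1 and Il18rap also follow each other, and there the direction was mixed. Also on chromosome 1, Il24, Il20, Il19 and Il10 are neighbors, and members of this group were called in opposite directions.

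Of the IL-10 family in the latter group, the epithelium-directed members were counted under the intracranial label and Il10 itself mostly under the extracranial label. Il24 was at 66 and 0 counts, at least 13.4-fold higher, and Il19 was at 44 and 0 counts, at least 8.81-fold higher. Both signal through Il20rb, which was at 265 and 68 counts and 3-fold higher under the intracranial label. Il20rb pairs with Il20ra (19 and 4 counts) for both ligands, and also with Il22ra1 (15 and 0 counts) for Il24. In contrast, Il10, the main anti-inflammatory interleukin, was at 5 and 52 counts, 13.5-fold higher under the extracranial label (log2 ratio 3.75, 2.44 to 5.44). Its receptor chain Il10ra was at 1759 and 5320 counts, or 50.6 and 198.8 CPM, 3.93-fold higher under the same label. The second chain Il10rb was at 1511 and 2439 counts, 2.10-fold higher with an interval that just reached below 2-fold. Il20 had 0 counts in both libraries, and Il22 had 2 and 0.

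IL-23 and IL-17 link T cells and innate lymphocytes to epithelium and neutrophils. Of the 8 tested genes of the IL-17 family, 2 (25%) were called under the intracranial label and 0 under the other. Among all genes, 5.41% and 1.78% were called. Il17a was at 70 and 0 counts, at least 14.2-fold higher, whereas its relative Il17f was at 17 and 4 counts. Il23a, the specific subunit of IL-23, was at 59 and 6 counts, 7.57-fold higher with an interval beyond 2-fold only. Its receptor Il23r was called, with 32 and 0 counts and at least 6.30-fold. All of these were low, at no more than 2.02 CPM.

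The receptors of IL-17 were more abundant. Il17ra, the common chain, was nearly level at 993 and 918 counts. Il17rc, its partner for Il17a and Il17f, was at 1507 and 354 counts, or 43.4 and 13.2 CPM, 3.28-fold higher under the intracranial label. Il17rd was at 1880 and 414 counts and 3.50-fold higher. Il17re, the receptor chain for Il17c on epithelial cells, was at 102 and 2 counts, a 39.3-fold ratio with a log2 interval of -8.36 to -3.41, while Il17c itself was at 7 and 1 counts. Il17rb was at 23 and 5 counts beside its ligands Il17b (7 and 0) and Il25 (0 and 1).

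The subunits of IL-12 were near the floor. Il12b, which is shared by IL-12 and IL-23, was at 8 and 30 counts, 4.87-fold higher under the extracranial label with an interval beyond 2-fold, and Il12a was at 7 and 1. The receptor chain Il12rb1 was at 50 and 43 counts and Il12rb2 at 16 and 1. Il12b and Il23a, the partners that form IL-23, thus had ratios of opposite sign.

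Among the cytokines that signal through Il6st (gp130), Il6 stood apart. Il6, which drives the acute phase response, was at 523 and 8 counts, or 15 and 0.299 CPM, 50.4-fold higher under the intracranial label (log2 ratio -5.65, -6.87 to -4.67). Neither of its receptor chains was beyond 2-fold. Il6ra was at 1502 and 1675 counts (log2 ratio 0.53), and Il6st was at 2667 and 2188 counts (0.09). Il11 was at 127 and 34 counts and its receptor Il11ra1 at 2174 and 1766, of which 36.9% of the 72-base stretches are shared with other genes.

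Il27, the p28 subunit of IL-27, was at 21 and 84 counts, 5.19-fold higher under the extracranial label with an interval beyond 2-fold. Ebi3, the other subunit, was at 54 and 218 counts and 5.24-fold higher, also beyond 2-fold only. The receptor Il27ra was at 63 and 101 counts (log2 ratio 1.06, 0.59 to 1.54). Both subunits of this cytokine were therefore higher under the extracranial label by a like fold. Il31ra was at 0 and 5 counts, and Il31 at 1 and 0.

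In the common gamma chain family, 0 ligands and 4 receptors were beyond 2-fold. Among its 13 tested members these were 15.4% in each direction, against 9.77% and 5.86% of all genes. Il2ra, the high-affinity chain of the IL-2 receptor, was at 291 and 24 counts, 9.34-fold higher under the intracranial label (log2 ratio -3.22, -3.89 to -2.62). The other chains, Il2rb (138 and 211 counts) and Il2rg (504 and 746), had ratios of the opposite sign. Il2 was at 266 and 221 counts, but 10.8% of its 72-base stretches also occur in Ntan1, which had 1305 and 1187 counts, so its level cannot be separated from that gene. Of the 14 genes of the T and NK cell list, 13 were tested and 8 were more than 2-fold higher under the extracranial label. The summed level of the list was 57.1 CPM there against 20.6 CPM. None was beyond 2-fold under the intracranial label, where Zap70 was at 130 counts against 74, and Cd3d, Cd3e and Cd3g were not beyond 2-fold.

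Il7r, the receptor of IL-7 and TSLP, was at 202 and 42 counts and 3.70-fold higher under the intracranial label. Its ligand Il7 was at 640 and 249 counts (log2 ratio -0.99), and Tslp was at 31 and 14 counts beside Crlf2 at 1185 and 1800. Il21r was at 596 and 1661 counts, 3.62-fold higher under the extracranial label, with its ligand Il21 at 2 and 4 counts. Il4ra, the chain for IL-4 and IL-13, was at 3015 and 5214 counts and 2.25-fold higher under the same label. Il4 was at 32 and 34 counts and Il13 at 1 and 0, beside the receptor Il13ra1 at 1142 and 1118 and the decoy Il13ra2 at 32 and 12. Il15 (164 and 185 counts) and Il15ra (387 and 321) were nearly level. The ligand side of Il4ra and Il21r was therefore at 34 counts or fewer in both libraries.

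Il34 and Il16 stand outside these families. Il34, a second ligand of the macrophage receptor Csf1r, was at 398 and 1341 counts, or 11.5 and 50.1 CPM, 4.38-fold higher under the extracranial label with an interval that began just below 4-fold (log2 ratio 2.13, 1.97 to 2.29). Csf1r was at 13206 and 35302 counts and 3.47-fold higher. The other ligand, Csf1, was at 9445 and 11959 counts (log2 ratio 0.72, 0.68 to 0.76). Il16, a chemoattractant that binds Cd4, was at 294 and 935 counts, 4.13-fold higher under the extracranial label, and Cd4 was at 20 and 172 counts.

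In the TNF superfamily, 32 of 34 members were tested, and 3 were called, 2 (6.25%) under the intracranial and 1 (3.12%) under the extracranial label. These shares were near the 5.41% and 1.78% of all genes. Tnf itself was at 230 and 260 counts, or 6.62 and 9.72 CPM (log2 ratio 0.55, 0.29 to 0.82). Its receptor Tnfrsf1a was nearly level at 4491 and 3588 counts. Tnfrsf1b, found mainly on leukocytes, was at 2096 and 3468 counts and 2.15-fold higher under the extracranial label. Next to Tnf on chromosome 17, Ltb was at 124 and 127 counts and Lta at 38 and 6, with Lta 4.88-fold higher under the intracranial label and beyond 2-fold only. Their receptor Ltbr was at 1162 and 1613 counts. Tnf and Tnfrsf1a were thus not beyond 2-fold, whereas Tnfrsf1b and Lta were, in opposite directions.

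The decoys of the superfamily were called in both directions. Tnfrsf11b (osteoprotegerin), the soluble decoy for the osteoclast factor Tnfsf11 (RANKL), was at 126 and 617 counts, 6.36-fold higher under the extracranial label (log2 ratio 2.67, 2.39 to 2.96). Tnfsf11 was at 54 and 83 counts and its receptor Tnfrsf11a (RANK) at 803 and 1342, with log2 ratios of 1 and 1.12. The 7 osteoclast markers lay the other way: 7 of 7 were more than 2-fold higher under the intracranial label, 3 of them beyond 4-fold, with summed levels of 1213 and 263.8 CPM and Calcr at 14 and 0 counts. Among all genes, 9.77% were beyond 2-fold and 5.41% beyond 4-fold under the intracranial label. The part of osteoclasts in the Tnfrsf11b result was not tested.

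Tnfrsf22 and Tnfrsf23, decoys for the death ligand TRAIL (Tnfsf10), are neighbors of Tnfrsf26 on chromosome 7. Tnfrsf22 was at 896 and 142 counts, 4.86-fold higher under the intracranial label (log2 ratio -2.28, -2.55 to -2.02). Tnfrsf23 was at 1068 and 206 counts and 3.99-fold higher, and Tnfrsf26 was at 161 and 34 counts and 3.65-fold higher. Of the 72-base stretches of Tnfrsf22 and Tnfrsf23, 21.5% and 13.5% occur elsewhere, mostly in each other. TRAIL itself went the other way, at 90 and 210 counts and 3.03-fold higher under the extracranial label. Its death receptor Tnfrsf10b was at 377 and 333 counts (log2 ratio 0.20, -0.02 to 0.41). Decoys and ligand of this axis therefore differed in opposite directions, with the signaling receptor between them.

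Of the other TNF receptors, Tnfrsf19 (TROY), known from ectoderm and neural precursors, was at 148 and 1 counts, a 114-fold ratio with a log2 interval of -12.15 to -4.33. Tnfrsf9 (4-1BB), a costimulatory receptor of lymphocytes, was at 185 and 36 counts and 3.96-fold higher under the intracranial label, and its ligand Tnfsf9 was at 149 and 54 counts (log2 ratio -1.09). Tnfrsf14 was at 84 and 181 counts and 2.80-fold higher under the extracranial label, with its ligand Tnfsf14 (LIGHT) at 65 and 45. Tnfrsf12a and its ligand Tnfsf12 were both not beyond 2-fold, at 4423 and 4231 and at 789 and 888 counts. Part of the Tnfsf12 counts is uncertain, since 45.9% of its 72-base stretches are also in the read-through gene Tnfsfm13.

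Of 5 B cell factors and receptors, 0 were beyond 4-fold and 3 were beyond 2-fold, each under the extracranial label. Tnfrsf13c, with fewer than 10 counts over both libraries, could not be called. Among all tested genes, 5.86% were beyond 2-fold under the extracranial label. Tnfsf13b (BAFF), a survival factor of B cells, was at 354 and 700 counts and 2.57-fold higher. Its receptor Tnfrsf13b (TACI) was at 342 and 900 counts and 3.42-fold higher, and the plasma cell receptor Tnfrsf17 (BCMA) was at 3 and 18 counts, a 7.79-fold ratio with an interval beyond 2-fold. Tnfrsf13c, the main BAFF receptor of B cells, was at 3 and 4 counts, and the ligand Tnfsf13 (APRIL) was at 29 and 36, with 55.9% of its stretches shared with Tnfsfm13. Cd40, which is also found on B cells and myeloid cells, was at 185 and 711 counts, 4.99-fold higher and called beyond 4-fold, although its ligand Cd40lg was at 0 and 1 counts. The B and plasma cell list had a summed level of 16.5 and 327.8 CPM and 3 of 8 genes beyond 2-fold, the main one being Ighm at 458 and 8069 counts, with Mzb1 at 0 under the intracranial label. The part of these cells in the results was not tested.

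The remaining pairs of the superfamily were low. Fasl, the killing ligand of cytotoxic lymphocytes, was at 1 and 24 counts, a 31.2-fold ratio with a log2 interval of 2.35 to 10.32, and its receptor Fas was at 198 and 153. Cd70 was at 1 and 4 counts and its receptor Cd27 at 9 and 24. Tnfsf8 was at 101 and 45 counts and Tnfrsf8 at 18 and 23. Tnfsf15 was at 10 and 2 counts and its receptor Tnfrsf25 at 99 and 41, and Tnfsf18 was at 5 and 10 counts and Tnfrsf18 at 102 and 46. Tnfrsf4 was at 74 and 111 counts with its ligand Tnfsf4 at 1 and 0. Eda, the ligand of skin appendage development, was at 39 and 50 counts beside its receptors Edar at 8 and 16 and Eda2r at 1213 and 575.

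When the ligands were paired with their receptors, 54 pairs resulted, including partners outside the rule such as Csf1r. Ligand and at least 1 receptor chain were above 3 counts in 41 and 34 pairs, and in 31 pairs in both libraries. A ligand was called under the intracranial label in 8 pairs and under the extracranial label in 2 (Il10 and Fasl). In 0 of these a receptor was called too. Among all genes, 5.41% and 1.78% were called, so with so few ligands this count says little about pairing. With the 2-fold bound, 11 and 8 ligands were called, beside 9.77% and 5.86% of all genes. A receptor was called in the same direction for 7 and 4 of them, and in the opposite direction for 1 and 1. Those under the intracranial label were the 3 IL-36 ligands with Il1rl2, Il23a with Il23r, Il19 and Il24 with Il20rb, and Il17a with Il17rc. Those under the extracranial label were Il10 with Il10ra, Il34 with Csf1r, Il16 with Cd4, and Tnfsf13b with its receptors. Over the 82 ligand and receptor links with a ratio on both sides, 53 had both ratios on the same side of 0. Links share chains, so they are no independent points, and the share for genes that are not paired was not computed.

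**Figure D3:**
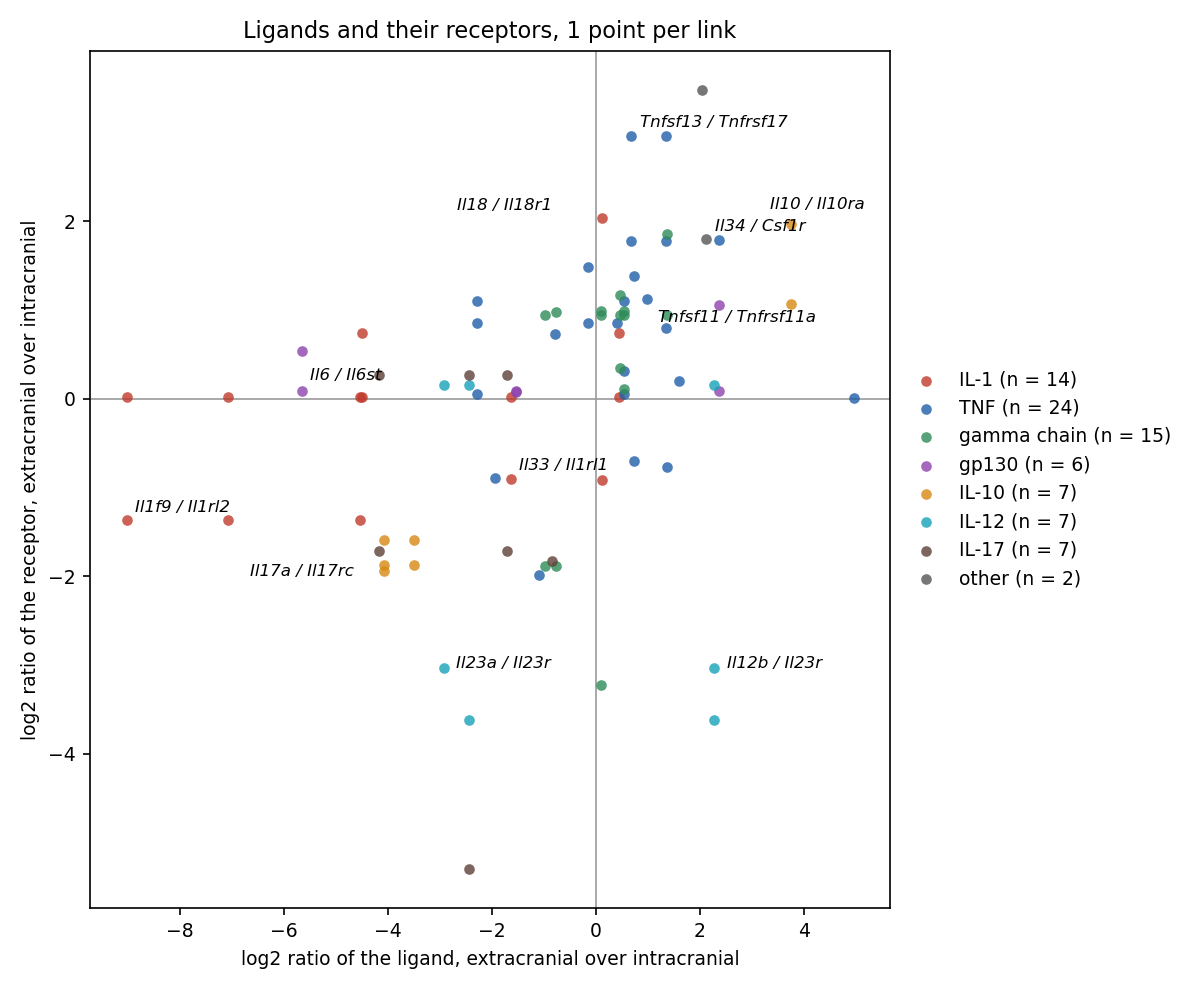
Log2 ratio extracranial over intracranial of the ligand (x axis) and of a receptor chain (y axis) for the 82 links with both ratios, colored by family. Ratios of genes at 0 counts in 1 library are drawn at their bound against the floor of 3 counts. Ligands spread from -9.02 to 4.96, and for Il1f9 and Il6 the receptors stay close to 0 by comparison.

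Genes further along the pathways are read against the 5.41% and 1.78% of all genes called. Of 35 genes of the NF-κB route, which TNF and IL-1 receptors share, 0 were called beyond 4-fold and only Traf1 (747 and 247 counts) was beyond 2-fold, with a median log2 ratio of 0.01. Of 16 JAK-STAT genes, 0 were called beyond 4-fold and only the phosphatase Ptpn6 (1797 and 4939 counts) was beyond 2-fold, under the extracranial label. Of 35 partner ligands and receptors outside the rule, 32 were tested, and 3.12% and 9.38% of these were called. Csf3, the growth factor of neutrophils, was the only 1 called under the intracranial label, at 403 and 0 counts, with a log2 interval ending at -6.39. Cd40 and Fasl were among those called under the extracranial label. The receptor Csf3r was at 692 and 1542 counts and 2.89-fold higher under the extracranial label, opposite to its ligand. Csf2 was at 27 and 3 counts, a ratio of 6.93 with an interval beyond 2-fold.

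Marker lists of other cells also differed between the libraries. With 2 libraries, a gene higher in either shares its direction with every list higher there. A shared direction therefore assigns no gene to a cell type. Among all genes, 9.77% and 5.86% were beyond 2-fold under the intracranial and extracranial labels, and 5.41% and 1.78% beyond 4-fold. The keratinocyte list was higher under the intracranial label, as were Il33, the IL-36 genes, Il1a, Il24, Il19 and Il17re. Il33 was at 587.6 CPM under the extracranial label, where the keratinocyte list was at 0.598 CPM. Which cells held the Il33 transcript was not tested. The neutrophil list had summed levels of 708.2 and 58.7 CPM. Of its 10 genes, 6 were tested and 5 were called under the intracranial label. Most of the intracranial sum was S100a8 and S100a9, at 258.2 and 416 CPM there. The other called genes were Cxcr2 (113 and 4 counts), Retnlg (306 and 0) and Camp (58 and 2). Csf3r, at 19.9 and 57.6 CPM, had the opposite direction and made up nearly all of the extracranial sum. Ly6g was at 4 and 1 counts. Retnlg, Ngp, Elane and Mpo were at 0 under the extracranial label and Mpo at 0 in both. Csf3, Il17a and Il1r2 were higher under the intracranial label as well. The macrophage list lay higher under the extracranial label for 12 of 12 genes, 10 of them beyond 2-fold, at 6168 and 14067 CPM. Il10, Il10ra, Il34, Il16 and Tnfrsf1b were higher under that label as well. The part of these cells in the results was not tested.

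Other lists differed less or were small, and the shares of all genes just given apply to their counts too. Dendritic cell genes summed to 22.9 and 40.6 CPM, with 4 of 7 beyond 2-fold under the extracranial label. Endothelial genes summed to 98.7 and 221 CPM, with 3 of 6 beyond 2-fold, and fibroblast genes to 3249 and 4801 CPM, with 2 of 5. Mast cell genes summed to 7.83 and 5.75 CPM. Of these 7 genes, 3 were tested and 2 were called under the intracranial label, and 4 were at 0 under the other. Within the fibroblast list, 3 of 5 genes had higher levels under the extracranial label. Dcn and Lum were called there, and Col1a2 (60210 and 64597 counts) had a log2 ratio of 0.48. Col1a1 (38670 and 23741 counts) and Pdgfra (9417 and 3686 counts) had ratios of the opposite sign.

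**Figure D4:**
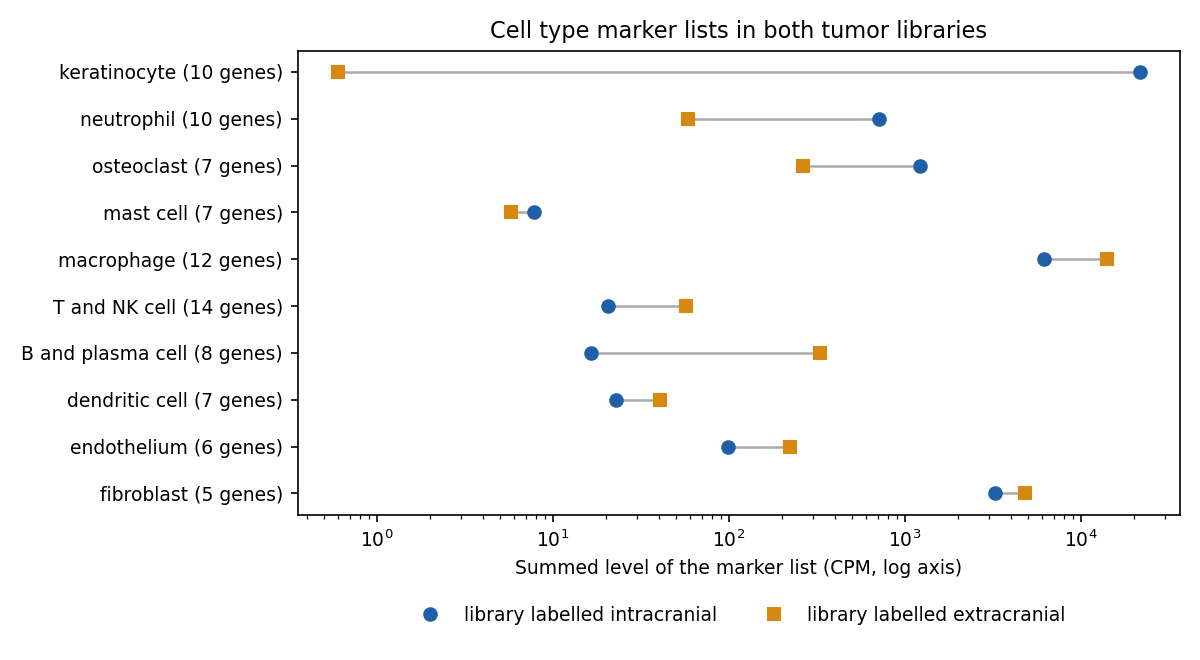
Summed level of 10 cell type marker lists in CPM (x axis, log scale) in the library labelled intracranial (circles) and extracranial (squares), 1 list per line. Keratinocyte (21518 and 0.598 CPM), neutrophil and osteoclast sums are higher under the intracranial label, and macrophage and B and plasma cell sums under the extracranial label. The neutrophil sum under the intracranial label is mostly S100a8 and S100a9.

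The members not described so far had little or no signal, or did not differ beyond 2-fold. Tnfrsf21, a death receptor of neurons and lymphocytes, was at 503 and 741 counts, and Il3ra was at 770 and 897 with Il3 at 0 in both and with Csf2rb at 1287 and 2118. Il17d was at 27 and 20 counts. Il9r was at 4 and 3 counts with Il9 at 0 in both, and Il5 was at 2 and 0 with Il5ra at 0 and 3. Il4i1, an amino acid oxidase, was at 10 and 0 counts. Il22ra2 was at 3 and 0 counts, and Il1rapl1 and Il1rapl2, synaptic relatives of the IL-1 receptor, were at 1 and 0 and at 0 in both. For 14 members in all, counts were 3 or fewer in both libraries, and no ratio is given for them.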

How the data were processed

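Bulk RNA-seq of 2 murine tumors was analysed. The deposited table holds raw counts per Ensembl gene. For these counts, poly(A) RNA was made into directional libraries, and the authors aligned reads with STAR (2.7.9a) to GRCm39 with Ensembl 104 models and counted with featureCounts. Its strand setting and treatment of reads with several alignments are not given in the sources used here, so overlapping and antisense genes cannot be told apart.

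Symbols, biotypes and exon lengths came from GENCODE mouse release 21, which named 52135 IDs. CPM used library sizes scaled by TMM of edgeR (4.0.16, R 4.3.3), with factors of 1.01 and 0.99. Ratios of the extracranial over the intracranial library have a 95% interval from the exact binomial (Clopper-Pearson) of the 2 counts, for genes with 10 or more counts over both libraries. With 1 library per location, no test could be fitted. Genes at 0 counts were set against a floor of 3 counts per library, which corresponds to 0.0863 and 0.112 CPM, and "at least" marks the interval's end nearest to equal levels. The reads carry no molecular identifiers, so they need not be independent molecules. Shared sequence was measured as the percent of 72-base stretches of a gene found in other genes. Procedures were tested on simulated data.

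Members, families, pairs and marker lists were chosen with earlier results of these data known. Named with values were members beyond 4-fold, the 10 highest per kilobase in each library, both sides of pairs with a partner above 3 counts, and pathway genes beyond 4-fold. Other genes named were chosen after their values were seen. Alternatives were DESeq2 (1.42.0) size factors, total counts, other count minimums, the ratio alone, a prior count of 2, leaving out members whose exons overlap another gene, CPM without division by length and, added after seeing the data, an interval beyond 2-fold and protein-coding genes as background. The result for 1 pathway gene is not reported here.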

Additional observations from a re-analysis of the deposited data

How the results depend on the processing

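The 16 members called higher under the intracranial label numbered 11 to 19 under other scaling, count minimums, the ratio alone and without members that overlap another gene, and 28 with a 2-fold bound. The 2 called under the extracranial label became 1 with a minimum of 100 counts, since Il10 has fewer, 8 with the ratio alone and 16 with a 2-fold bound. Pairs with ligand and receptor called together rose from 0 to 7 and from 0 to 4 with a 2-fold bound. The calls under the extracranial label therefore depend on the threshold. Other scaling moved all log2 ratios by 0.015 or -0.017, and 102 of 102 stayed within their counting interval. The sign of Il11ra2 and Il1rap, whose ratios were 0.011 and 0.016, turned with total counts. Ordered by CPM instead of per kilobase, 5 and 8 of the 10 highest members were shared. No paired analysis was possible because every tumor site was represented by 1 library only, and leaving out a library was not possible for the same reason. Depth limits members at 0 counts to below 0.106 and 0.138 CPM.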
